A study of Mus musculus with 34 samples.

Results

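The 10 genes Th, Ddc, Slc6a3, Slc18a2, Tph2, Slc6a4, Fev, Slc6a2, Dbh and Pnmt of the brain's monoamine neurons were followed through the brain of the 3-day-old mouse. They are 10 of 20145 genes named on the array and were chosen by name, and every probe whose RefSeq accession belongs to one of them was taken, which gave 12 of the 55681 probes of the array that are not controls. Ddc and Slc18a2 had 2 probes each and the other 8 genes had 1. All 12 probes were among the 34186 tested, those that rose above background somewhere in every cutting series. The study cut the brains of 3 untreated wild-type C57BL/6J males, aged 3 days, each along 1 axis: mouse 1 gave 15 coronal fractions, mouse 2 gave 8 horizontal fractions and mouse 3 gave 11 sagittal fractions. Sagittal fractions 1 and 11 each pooled 2 cut slabs. One array was made per fraction, so fractions are positions within 1 mouse and not replicates, and p-values below compare positions within that mouse only.

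Monoamine neurons are few in number and lie in small nuclei, from which their axons reach most of the brain. Dopamine and noradrenaline are both made from tyrosine, and serotonin is made from tryptophan. Tyrosine hydroxylase (Th) starts the first route and tryptophan hydroxylase (Tph2) starts the second, aromatic amino acid decarboxylase (Ddc) serves both, and the vesicular transporter (Slc18a2) loads all of these transmitters. Dopamine beta-hydroxylase (Dbh) turns dopamine into noradrenaline, and Pnmt turns noradrenaline into adrenaline. Each transmitter has its own transporter at the cell surface, Slc6a3 for dopamine, Slc6a4 for serotonin and Slc6a2 for noradrenaline, and Fev is a transcription factor of serotonin neurons. Dopamine neurons are known in the ventral midbrain, the hypothalamus and the olfactory bulb, serotonin neurons in the raphe along the midline of the hindbrain, and noradrenaline neurons in the locus coeruleus and the lower brainstem.

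Values are given as log2 normalized signal, the log2 of a probe's processed intensity less the log2 of the 75th percentile of its array. A probe's level on this scale may be compared between fractions and not with the level of another probe. Of the 59305 spots on an array that are not controls, 49.9% to 62.5% were well above background, and the SD of log2 values of repeated spots within an array was 0.06 to 0.11. The labels do not say at which end a series starts. Marker genes gave an orientation: all 8 hindbrain Hox genes had their highest coronal fraction among 1 to 3, and all 6 markers of the cortex and all 5 of the olfactory bulb among 13 to 15. In the horizontal series the cortex markers were highest in fraction 2 and the hypothalamus markers in fraction 8. In fractions of whole tissue, fewer cells of a type and less RNA per cell cannot be told apart.

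Promoters are shown for 3 serotonin genes that moved together below and for Th, which has maxima in distant fractions. Each run is the 250 bases before the annotated start of the gene, 5′ to 3′ on the gene's strand, from RefSeq on GRCm38.p6, and capitals mark a match to 1 of 4 motifs searched on both strands.
Tph2, chr10:115185023-115185272, minus strand: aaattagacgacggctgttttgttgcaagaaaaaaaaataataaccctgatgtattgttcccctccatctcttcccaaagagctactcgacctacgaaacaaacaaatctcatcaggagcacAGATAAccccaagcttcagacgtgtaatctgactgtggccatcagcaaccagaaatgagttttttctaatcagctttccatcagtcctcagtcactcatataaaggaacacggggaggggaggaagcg
Fev, chr1:74885409-74885658, minus strand: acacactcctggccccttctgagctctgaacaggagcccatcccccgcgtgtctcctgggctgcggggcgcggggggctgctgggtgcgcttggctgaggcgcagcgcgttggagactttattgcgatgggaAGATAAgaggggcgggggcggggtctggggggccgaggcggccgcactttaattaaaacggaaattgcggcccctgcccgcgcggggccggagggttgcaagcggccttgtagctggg
Slc6a4, chr11:76998347-76998596, plus strand: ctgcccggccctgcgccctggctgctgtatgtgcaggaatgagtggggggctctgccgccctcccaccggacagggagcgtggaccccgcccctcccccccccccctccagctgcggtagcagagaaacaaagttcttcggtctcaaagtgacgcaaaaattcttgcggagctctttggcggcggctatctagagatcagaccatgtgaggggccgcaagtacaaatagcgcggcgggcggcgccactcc
Th, chr7:142899996-142900245, minus strand: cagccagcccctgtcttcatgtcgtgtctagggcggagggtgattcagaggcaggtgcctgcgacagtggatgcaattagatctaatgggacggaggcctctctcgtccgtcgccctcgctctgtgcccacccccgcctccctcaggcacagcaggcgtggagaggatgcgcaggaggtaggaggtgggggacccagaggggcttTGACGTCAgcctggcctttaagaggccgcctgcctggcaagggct
The motifs were the GATA motif AGATAA, the cyclic AMP response element TGACGTCA, the forkhead motif TGTTTAC and the NGFI-B response element AAAGGTCA. AGATAA was found in Tph2, at bases 128 to 123 before the start, and in Fev, at bases 118 to 113. Slc18a2 held it on the opposite strand at bases 230 to 225, and 9.99% of the 32851 windows in the table held it. The cyclic AMP response element, which reads the same on both strands, was found in Th at bases 45 to 38, and 1.55% of all windows held it. The NGFI-B element was found in Ddc on the opposite strand at bases 73 to 66 and in 1.34% of all windows. The forkhead motif was in none of the members' windows and in 3.17% of all. The table held promoters for 8 of the 10 genes, and the windows of Slc6a3, Slc6a4 and Dbh held none of these motifs. A match of letters describes the sequence only. It does not show a site that is used.

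The highest coronal fraction was 4, 5 or 6 for 8 of the 10 genes, as for 13.2% of all probes tested. Within that stretch, the genes of noradrenaline neurons were highest in fraction 4, those of serotonin neurons in fraction 5 and the dopamine transporter in fraction 6. Dbh was at -3.42 in fraction 1, 1.07 in fraction 2, 1.96 in fraction 3, 3.25 in fraction 4, 0.68 in fraction 5 and -1.46 in fraction 6, and it lay between -3.71 and -2.38 in fractions 7 to 15. The peak was thus 1.29 above its nearest rival, fraction 3, and far above everything from fraction 6 on. Slc6a2, which takes noradrenaline back into the cell, was at -2.15, 0.08, 1.91, -0.70 and -2.83 in fractions 2 to 6 and was not well above background in the other 10 fractions. Between fractions 4 and 6, Slc6a2 differed by 4.74 and Dbh by 4.71, both higher in fraction 4. Pnmt did not share this pattern: its lowest, median and highest coronal values were -3.95, -2.71 and -1.77, with the highest in fraction 10 and fraction 3 only 0.07 below it.

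**Figure D1:**
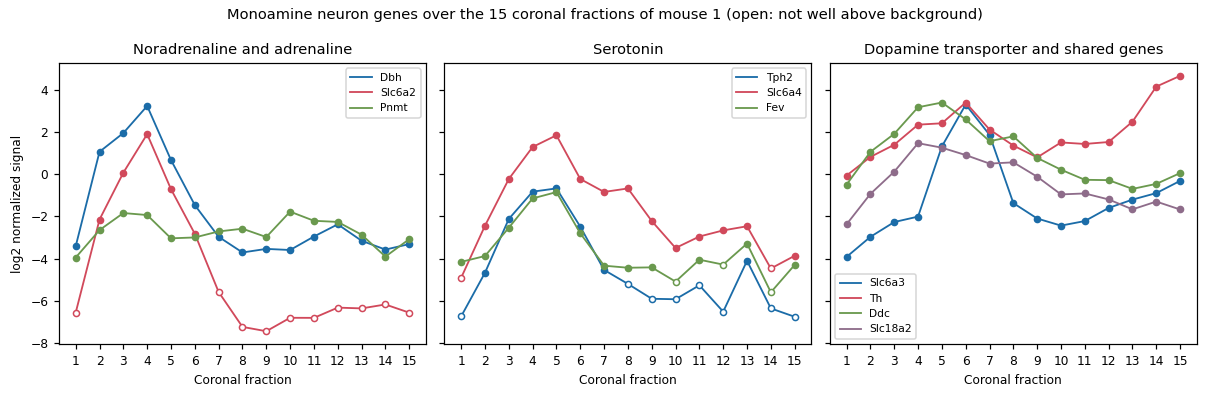
Log2 normalized signal (vertical axis) of the 10 genes in the 15 coronal fractions of mouse 1 (horizontal axis), with 1 line per gene and 1 array per point; open points were not well above background. Dbh and Slc6a2 were highest in fraction 4, Tph2, Slc6a4 and Fev in fraction 5 and Slc6a3 in fraction 6, while Th rose again to 4.68 in fraction 15.

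The 3 genes of serotonin neurons formed a broader hump 1 fraction further on. Tph2 was at -2.12, -0.82, -0.67 and -2.49 in fractions 3 to 6. Slc6a4 was at -0.22, 1.30, 1.86 and -0.22 in the same fractions, and Fev was at -2.54, -1.14, -0.84 and -2.80. All 3 were highest in fraction 5, but their values in fraction 4 were only 0.16, 0.56 and 0.30 lower, in that order, and with 1 array per fraction there is no replicate error to set against these gaps. The drop from fraction 5 to fraction 6 was larger, at 1.82 for Tph2, 2.08 for Slc6a4 and 1.96 for Fev. Among fractions 8 to 15, Tph2 was well above background in fraction 13 alone, at -4.11.

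The dopamine transporter Slc6a3 was as narrowly distributed as Dbh and Slc6a2, each of the 3 with no second coronal fraction within 1 log2 unit of its peak. Slc6a3 was at -2.01 in fraction 4, 1.32 in fraction 5, 3.32 in fraction 6, 1.88 in fraction 7 and -1.37 in fraction 8, with a lowest coronal value of -3.92 and a median of -1.60. It was 5.33 higher in fraction 6 than in fraction 4, whereas the noradrenaline genes went the other way by nearly as much. From fraction 10 on it climbed slowly, from -2.44 to -0.31 in fraction 15.

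Th, needed for both dopamine and noradrenaline, had 2 separate maxima. It climbed from -0.06 in fraction 1 through 2.36 and 2.43 in fractions 4 and 5 to 3.41 in fraction 6, the peak of Slc6a3. It then fell to 0.80 in fraction 9, stayed between 1.44 and 1.54 in fractions 10 to 12 and reached 2.50, 4.17 and 4.68 in fractions 13 to 15. The front end of the series, where all 5 olfactory bulb markers were highest, thus held the highest Th of the coronal series, and fraction 15 stood 3.14 above fraction 12. Ddc and Slc18a2, which Th neurons share with other monoamine neurons, showed no such second maximum. Ddc was at 3.19, 3.41 and 2.61 in fractions 4 to 6 and between -0.69 and 0.06 in fractions 13 to 15. Slc18a2 was at 1.48, 1.27 and 0.92 in fractions 4 to 6 and between -1.67 and -1.29 in fractions 13 to 15. The peaks of these 2 shared genes lay in fractions 5 and 4. The second probe of each gene gave the same coronal peak, and its r with the first over the 34 fractions was 0.958 for Ddc and 0.968 for Slc18a2.

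The coronal fractions were then compared in 5 blocks of 3 with limma. In fractions 4 to 6, against the mean of the other 4 blocks, 6 of the 10 genes were higher: Slc6a2, Tph2, Slc6a4, Ddc, Fev and Slc18a2. Of the 34186 probes tested, 5.24% were higher at the same adjusted p under 0.05. Regional markers moved with the members. All 5 tested midbrain markers were higher in this block too (median difference 3.08), and their summed level was 4.40 to 4.71 in fractions 4 to 6, 3.98 to 4.78 in fractions 1 to 3 and 0.49 to 3.46 in fractions 7 to 15. Of 8 hindbrain markers 3 were higher (median 2.12), and their summed level was 1.05 to 3.79 in fractions 4 to 6, 4.85 to 6.19 in fractions 1 to 3 and -2.68 to -0.23 in fractions 7 to 15. The part of these regional levels in the members' differences was not tested. Ddc was at 3.07 ± 0.41 (SD, n = 3) in this block, and its difference was 2.63 ± 0.39 (SE, adjusted p = 0.0062). The difference was 4.02 ± 0.80 for Tph2 (adjusted p = 0.013), 3.58 ± 0.77 for Slc6a4 (0.017), 2.61 ± 0.49 for Fev (0.011) and 2.05 ± 0.36 for Slc18a2 (0.0095). For Slc6a2 it was 5.13 ± 1.11 (adjusted p = 0.017). Slc6a2 and Tph2 passed the detection filter partly through these very fractions, so part of their difference is a matter of being measured there at all. Slc6a2 was not well above background in any fraction of the last 3 blocks. Its mean level in fractions 4 to 6 was 26.3-fold a floor set for fractions 7 to 9, 17.4-fold that for 10 to 12 and 14.4-fold that for 13 to 15. The floor was the lowest signal well above background on each array of the dim block, or the probe's own signal where higher. Some signals not well above background exceed it, so these folds are not strict lower bounds. An example is the second Ddc probe in coronal fraction 13, with an intensity of 16.4 where the lowest signal well above background was 14.8. The bright mean rested on fraction 4, and without it the folds for Slc6a2 were 11.3, 7.44 and 6.16. For Tph2, not well above background in fractions 10 to 12, the fold over this floor was 10.1.

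The other 4 genes did not pass this comparison. Dbh missed narrowly, at 3.29 ± 0.99 (adjusted p = 0.051), and it passed when fraction 1, 3 or 6 was left out (adjusted p = 0.027, 0.031 and 0.039). Slc6a3, whose values in fractions 4 and 6 lay far apart, differed by 2.50 ± 0.93 (adjusted p = 0.096). Th differed by 0.87 ± 0.43 (adjusted p = 0.19) and Pnmt by 0.08 ± 0.37 (adjusted p = 0.91). The 6 calls rested on fractions 4 and 5: without fraction 5, 0 of the 10 genes passed, and without fraction 4 only Ddc did, although the differences stayed between 1.92 and 5.21 for the genes whose call was lost. Over all probes the calls higher in this block then fell from 1792 to 30 and to 94. With slide as a block, or within the slide of fractions 1 to 8, 0 of the 10 passed, and 3 and 0 of all probes were called higher. Most slides hold a stretch of neighbouring fractions, so slide and position overlap here.

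Over all 5 blocks, the moderated F test found differences for 8 of the 10 genes, against 40.0% of all probes tested, and Slc6a3 and Pnmt did not pass (adjusted p = 0.096 and 0.29). Without fraction 4 it found 5 genes and without fraction 5 it found 4. Th was the 1 gene higher in fractions 13 to 15, at 3.78 ± 1.14 (SD, n = 3) and with a difference of 2.19 ± 0.43 (SE, adjusted p = 0.0043), where 14.7% of all probes were higher. Leaving out any single fraction kept that call, and a slide block ended it (adjusted p = 0.080). Ddc and Slc18a2 were lower in the same fractions, with differences of -1.66 ± 0.39 and -1.41 ± 0.36 (adjusted p = 0.010 and 0.015), where 11.5% of all probes were lower. Slc18a2 did not pass without fraction 15 (adjusted p = 0.062), and neither gene passed with slide as a block (adjusted p = 0.35 and 0.36). Th was also lower in fractions 1 to 3, with a difference of -1.64 ± 0.43 (adjusted p = 0.019, with 12.3% of all probes lower), though not without fraction 1 or 2 (adjusted p = 0.11 and 0.066) or with slide as a block (0.11).

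**Figure D2:**
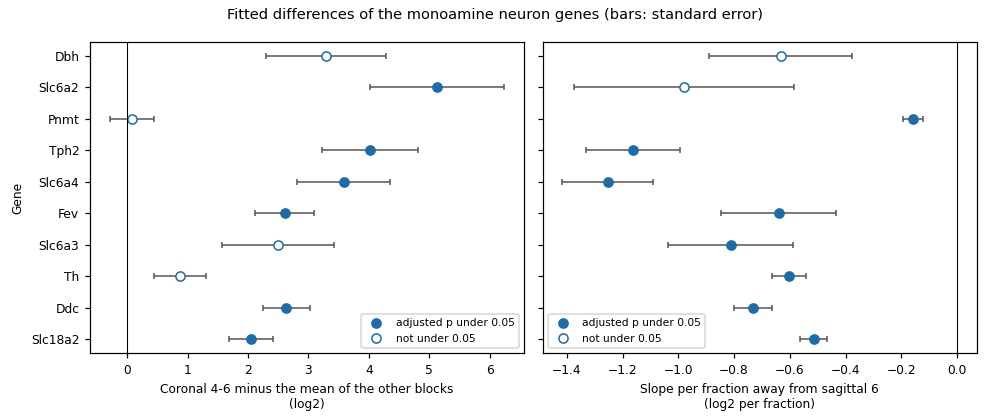
Left, the log2 difference between coronal fractions 4 to 6 and the mean of the other 4 blocks for each gene, and right, the log2 change per fraction away from sagittal fraction 6; points are fitted values, bars their standard errors, and filled points passed an adjusted p under 0.05. On the left 6 genes passed and 8 on the right, and every slope lay below 0.

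Across the sagittal series the genes separated into a single-peak and a paired pattern. Fraction 6 is the middle of the series by number, and the labels do not state in which fraction the midline lies. Tph2 was at -3.43, -1.30 and -2.17 in fractions 5 to 7 and was not well above background in fractions 1 to 4 or 9 to 11. Slc6a4 was at -0.74, 1.15 and 0.33 in fractions 5 to 7, and Fev was at -3.64, -1.30 and -2.33. All 3 serotonin genes had a single peak in fraction 6, the middle of the series, which stood 1.50, 1.30 and 1.68 above the mean of the higher values on each side (fractions 4 and 5, and 7 and 8). With 1 probe standing for each gene, a ridge of at least 0.5 over both sides was found in these 3 genes alone among the 10. It was found in 2.87% of all probes tested. Ddc just missed it with that probe: its peak in fraction 6 stood 0.47 above fraction 7. The second Ddc probe met it, with a peak in fraction 6 that stood 0.72 above fraction 7, the next highest. The thresholds for ridges and dips were chosen after the values were seen.

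The noradrenaline genes and the dopamine transporter were low in the middle and high on each side of it. Dbh was at -0.43, 1.93, -1.08, -0.40, 1.92 and 0.22 in fractions 4 to 9. Slc6a2 was at -2.14, 0.07, -4.53, -3.38, 0.07 and -2.69 in the same fractions, so that both genes had equal peaks in fractions 5 and 8 with a trough in between. Slc6a3 was at 2.02, 1.83, -0.15, 1.29, 2.13 and 0.39, a trough of 1 fraction between wider shoulders. Fraction 6 lay below the mean of the higher values on each side by 4.60 for Slc6a2, 3.00 for Dbh and 2.23 for Slc6a3. A dip of at least 1 against both sides was found in these 3 genes and in 1.18% of all probes tested, and the same number of members had it with array medians, quantile normalization or normexp.

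**Figure D3:**
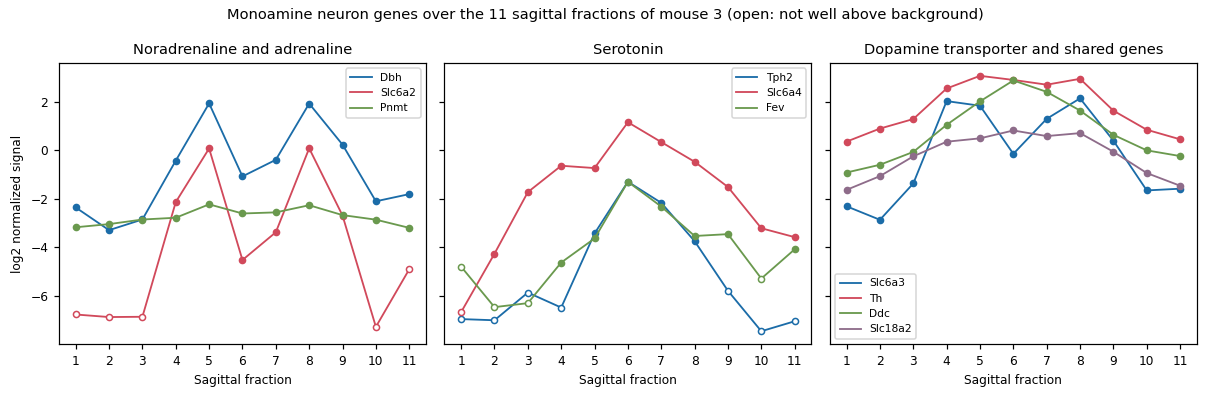
Log2 normalized signal (vertical axis) of the 10 genes in the 11 sagittal fractions of mouse 3 (horizontal axis), with 1 line per gene and 1 array per point; open points were not well above background. The serotonin genes peak in fraction 6, where Dbh (-1.08), Slc6a2 (-4.53) and Slc6a3 (-0.15) dip between higher values on each side.

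The shared genes lay between the patterns. Th made a plateau of 2.54, 3.06, 2.89, 2.69 and 2.94 in fractions 4 to 8 and fell to 0.35 and 0.44 in the outermost fractions. Ddc had its single peak in fraction 6, at 2.87, with 2.01 in fraction 5 and 2.40 in fraction 7. Slc18a2 was nearly level, at 0.35, 0.48, 0.81, 0.58 and 0.70 in fractions 4 to 8. Pnmt stayed between -3.20 and -2.23 in all 11 fractions, and each of them was within 1 log2 unit of its peak.

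With limma, the level of 8 of the 10 genes fell with distance from sagittal fraction 6, where 9.97% of all probes did. Regional markers fell in this fit as well. All 5 tested midbrain, 6 thalamus and 5 olfactory bulb markers did, with 7 of 8 hindbrain, 6 of 9 hypothalamus and 3 of 6 cerebellum markers. None of the striatum, cortex, pineal or pituitary markers fell, and all 6 cortex markers rose. The part of these regional levels in the members' slopes was not tested. The slope was -1.25 ± 0.16 per fraction for Slc6a4 (SE, adjusted p = 0.00057), -1.16 ± 0.17 for Tph2 (0.0010), -0.73 ± 0.07 for Ddc (1.0e-04), -0.60 ± 0.06 for Th (0.00018) and -0.51 ± 0.05 for Slc18a2 (0.00013). Slc6a3 fell by 0.81 ± 0.22 (adjusted p = 0.021), Fev by 0.64 ± 0.21 (0.039) and Pnmt by 0.16 ± 0.04 (0.0086). The paired genes Slc6a2 and Dbh had slopes of -0.98 ± 0.39 and -0.63 ± 0.26 that did not pass (adjusted p = 0.087 and 0.091). Both passed without fraction 6, in which they dip (adjusted p = 0.030 and 0.038). The call for Slc6a3 was lost without fraction 1 (adjusted p = 0.065), and that for Fev without any 1 of fractions 1, 2, 5, 6, 7, 8 and 10 (at most 0.18) or with quantile normalization (0.064). With normexp the slope of Pnmt was -0.04 and did not pass (adjusted p = 0.18). Slc6a3, Fev and Pnmt did not pass with slide as a block either (0.25, 0.055 and 0.18). With slide as a block 5 genes passed, and 927 of all probes fell with distance in place of 3409.

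No gene differed between the sides of the sagittal series when fractions adding to 12 were paired: limma called 0 members and 0.00% of all probes, with 3263 probes at an unadjusted p under 0.05. The fitted difference, fractions 7 to 11 minus 5 to 1, was nevertheless above 0 for all 10 genes, from 0.08 for Th to 1.43 for Fev. Ddc, Slc18a2, Slc6a4 and Fev had an unadjusted p under 0.05 in that direction, as had 3.24% of all probes. The second probe of Slc18a2 did not: its difference was -0.10 ± 0.16 (SE, unadjusted p = 0.57). Over all probes 47.1% of these differences were above 0. The signal-weighted mean position of the genes ran from fraction 6.08 for Th to fraction 6.61 for Dbh. When pairs were instead mirrored about the boundary of fractions 6 and 7, which was chosen with these values in view, the differences ran from -0.45 to 0.73, 4 of 10 were above 0, and 0 passed.

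Along the horizontal series Dbh was at -1.90, -3.76, -4.42 and -2.39 in fractions 1 to 4 and at 1.36, 1.11, -0.35 and -0.79 in fractions 5 to 8. Slc6a3 was at -2.21, -3.80, -3.15 and -1.58 and then at 1.75, 2.31, -0.88 and -0.08. Th was at 1.04, 0.08, -0.40 and 0.76 and then at 2.45, 2.96, 2.37 and 2.51. In these 3 genes, and in Slc6a2 and Ddc, no fraction from 1 to 4 reached the lowest of fractions 5 to 8. This makes 5 of 10 genes, with 1 probe standing for each, against 4.77% of all probes tested. The second Ddc probe overlapped: its highest in fractions 1 to 4 was -2.01 and its lowest in 5 to 8 was -2.21. Slc6a2 was highest in fraction 5, at 0.01, followed by -0.64 in fraction 6, and its highest in fractions 1 to 4 was -3.79. Ddc was highest in fraction 6, at 2.20, and Slc18a2 in fraction 5, at 0.97.

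**Figure D4:**
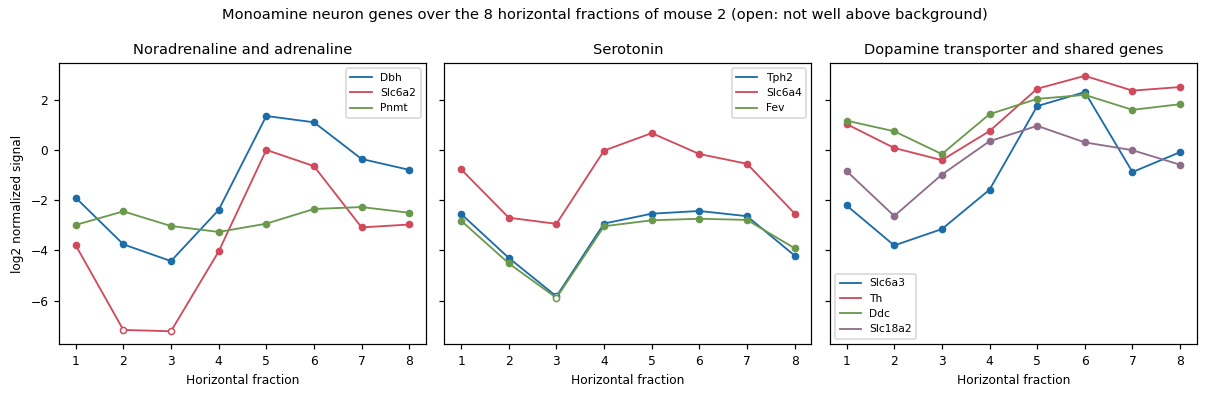
Log2 normalized signal (vertical axis) of the 10 genes in the 8 horizontal fractions of mouse 2 (horizontal axis), with 1 line per gene and 1 array per point; open points were not well above background. Dbh, Slc6a2 and Slc6a3 peak in fractions 5 and 6, and Tph2, Fev and Slc6a4 are lowest in fractions 2 and 3 but not in fraction 1.

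Tph2 was at -2.55, -4.30, -5.83 and -2.93 in fractions 1 to 4 and at -2.53, -2.43, -2.63 and -4.20 in fractions 5 to 8. Fraction 1 was thus level with fractions 5 to 7, and fractions 2, 3 and 8 were the low ones. Fev followed the same course, at -2.82 in fraction 1, -4.52 in fraction 2 and -2.74 in its highest, fraction 6. Slc6a4 was highest in fraction 5, at 0.68, with -0.77 in fraction 1 and -2.70 and -2.94 in fractions 2 and 3.

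Fraction 1 stood apart for these genes. Tph2, Slc6a4, Fev, Slc6a2 and Dbh were all at least 1 higher there than in fractions 2 and 3, 5 of 10 genes against 1.02% of all probes tested. This rule was not among the planned comparisons and follows the course of these same genes, so the count is a description and no test. Tph2 and Fev were not well above background in fraction 3, nor Slc6a2 in fractions 2 and 3. All 8 hindbrain markers met the same rule, and their summed level was 2.25 in fraction 1, -3.04 in fraction 2 and -4.06 in fraction 3, against 3.43, 3.71, 3.15 and 1.14 in fractions 5 to 8. The rule was also met by 5 of 9 hypothalamus, 2 of 5 olfactory bulb and 1 of 8 striatum markers. No tested marker of the other regional lists met it. The part of the hindbrain signal in the members' values in fraction 1 was not tested.

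Fractions 5 to 8 minus 1 to 4 gave 0 calls among the 10 genes with limma, where 0.00293% of all probes were called higher and as many lower. At an unadjusted p under 0.05, 5 genes were higher, against 7.32% of all probes. This count took 1 probe per gene. Of the second probes, that of Ddc differed by 0.88 ± 0.40 (SE, unadjusted p = 0.055) and that of Slc18a2 by 1.53 ± 0.67 (0.0499). The difference was 2.20 ± 0.31 for Th (SE, adjusted p = 0.072), 3.45 ± 0.68 for Dbh (0.095), 3.46 ± 0.77 for Slc6a3 (0.11), 3.88 ± 1.06 for Slc6a2 (0.15) and 1.12 ± 0.33 for Ddc (0.17). The serotonin genes differed by 0.95 to 1.01 (adjusted p = 0.52 to 0.64). Without fraction 1 there were 0 calls as well. Th passed without fraction 4 (adjusted p = 0.048), with slide as a block (0.046) and within the slide of fractions 1, 2 and 5 to 8 (0.047), and Th and Dbh passed with normexp (0.023 and 0.035).

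How alike the genes were was measured by Pearson's r over the 34 fractions, which share mice, and within a series neighbouring positions, and is given as a description. Dbh and Slc6a2 were the closest of the 45 pairs, with r = 0.960, and r was 0.975 in the coronal, 0.980 in the horizontal and 0.967 in the sagittal series. By Spearman's rho this pair was at 0.899, and Slc18a2 with Slc6a4 was higher, at 0.906. Slc6a2 was well above background in only 17 of the 34 fractions and Tph2 in 18, so many values behind their r lay near background. In all 6 pairs reached 0.85, the threshold the study uses for similar expression. The other 5 joined serotonin genes with one another or with shared genes: Ddc with Slc6a4 (0.899), Ddc with Tph2 (0.872), Tph2 with Fev (0.871), Slc18a2 with Slc6a4 (0.869) and Tph2 with Slc6a4 (0.853). Th reached at most 0.720, with Slc6a3, and its r with Ddc, the next enzyme of its route, was 0.407. The r of Th and Ddc was 0.931 in the sagittal, 0.929 in the horizontal and 0.06 in the coronal series, the one in which Th had its second maximum. For Slc6a3 and Dbh, r was 0.899 and 0.951 in the sagittal and horizontal series and -0.02 in the coronal series, where their peaks were 2 fractions apart.

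**Figure D5:**
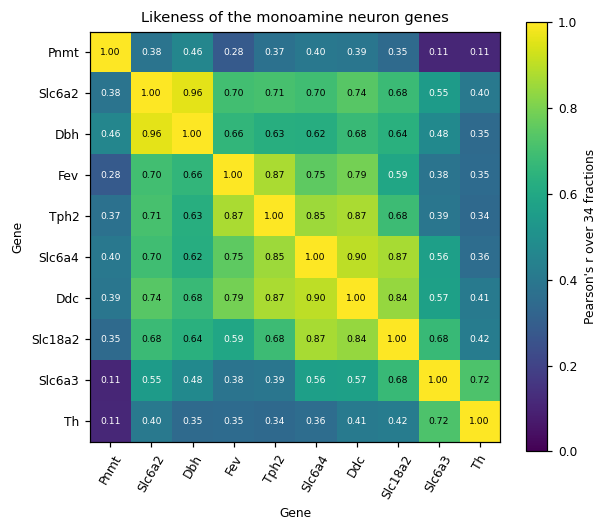
Pearson's r over the 34 fractions for each pair of the 10 genes (both axes), with the colour scale from 0 to 1. Dbh and Slc6a2 (0.96) are the closest pair, the serotonin genes form a group with Ddc, and Pnmt and Th have the lowest values. Slc18a2 is close to Slc6a4 (0.87) and Ddc (0.84) but less so to Tph2 (0.68) and Fev (0.59).

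For each gene, the 3 other named genes with the highest r were taken. Phox2a, a homeodomain factor of noradrenaline neurons, was among the 3 for both Dbh (0.883) and Slc6a2 (0.876), and Lims2 was among those for Dbh (0.867). Gchfr, which regulates the enzyme that starts synthesis of the hydroxylases' cofactor, came first for both Tph2 (0.895) and Fev (0.912). It was at 2.08, 2.60 and 1.03 in coronal fractions 4 to 6 and at 0.46, 2.16 and 1.45 in sagittal fractions 5 to 7, the order the serotonin genes had. Tph2 was next followed by Lhx4 (0.855) and Gch1 (0.843), Fev by Nkx6-1 (0.817) and Nkx1-2 (0.796), and Slc6a4 by Tpsg1 (0.866), Foxa1 (0.864) and Atp8b3 (0.845). For Slc6a3 the list was Chrna6 (0.826), a subunit of nicotinic receptors, Pth2 (0.759) and Foxa1 (0.740). Chrna6 was highest in coronal fraction 6 and was at -0.65, -0.09 and -0.91 in sagittal fractions 5 to 7, so that it shared the coronal peak of Slc6a3 and not its sagittal dip.

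The shared genes had other neighbours. Ddc was followed by Dnajc12 (0.927), a co-chaperone of the aromatic amino acid hydroxylases, by Gch1 (0.918) and by Impact (0.911). Slc18a2 was followed by Foxa1 (0.903), Lhfpl3 and Bend4 (0.882 each). Th was followed by Gask1a (0.871), Lbhd2 (0.842) and Slc5a11 (0.816), and all 3 of these were highest in coronal fraction 15. Pnmt was followed by Bbs9 (0.747), Ebf4 (0.721) and Hspb6 (0.705). Counted over all tested probes, r reached 0.85 with 46 probes for Ddc, 23 for Slc18a2, 8 for Slc6a4, 6 for Tph2, 6 for Dbh, 4 for Slc6a2, 2 for Fev, 1 for Th and 0 for Slc6a3 and Pnmt. Unlike the lists of neighbours, these counts include probes of other members, and the second probes of Ddc and Slc18a2.

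Regulators and markers of the same neurons are given by list. Of 11 tested dopamine neuron genes, 8 were higher in coronal fractions 4 to 6, where 5.24% of all probes were, and 0 lower, with a median difference of 1.72 beside -0.06 over all probes tested. Foxa1 and Foxa2, forkhead factors of midbrain dopamine neurons, differed by 4.64 (adjusted p = 0.015) and 5.13 (0.015), and both were highest in fraction 6 like Slc6a3. En2, a factor of the midbrain and anterior hindbrain, differed by 3.15 (0.0055) and was highest in fraction 3. Lmx1a differed by 2.54 without passing (0.056). Pitx3, required by midbrain dopamine neurons, was highest in fraction 6 too, at -0.90, and differed by 1.32 (0.045). Nr4a2 was the exception in the sagittal series, where its level rose with distance from fraction 6, by 0.62 per fraction (0.0019), while that of 9 of the 11 fell. Of all probes tested 9.97% fell, and 6257 of 34186 rose. En2 and Otx2 are also among the midbrain markers, and all 5 of those tested fell.

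Of 8 tested serotonin neuron genes, 4 were higher in coronal fractions 4 to 6 and 0 lower, with a median of 0.86. Over all probes tested, 5.24% were higher and 2153 of 34186 lower. Gata3 and Gata2, zinc finger factors of serotonin neurons and of midbrain inhibitory neurons, were highest in fraction 5. Gata3 was at 1.99, 2.63 and 2.16 in fractions 4 to 6 and differed by 4.60 (adjusted p = 0.0095). Gata2 differed by 1.66 (0.0069). In the horizontal series Gata3 was highest in fraction 2, at 1.42, where Tph2 and Fev were low. Sox14 differed by 2.53 (0.014) and was, like Gata3, highest in horizontal fraction 2, at -1.73. Htr1a, the inhibitory serotonin receptor on these neurons, differed by 1.02 (0.033). The rest did not pass: Htr1b differed by 0.69 (0.24), Nkx2-2 by 0.14 (0.51), Maob by 0.04 (0.93) and Lmx1b by -0.09 (0.79). Lmx1b and Maob were highest in coronal fractions 13 and 15.

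Of 8 tested noradrenaline neuron genes, 3 were higher in fractions 4 to 6 and 1 was lower, with a median of 0.05. Among all probes tested, 5.24% were higher and 2153 of 34186 lower. Phox2a was at 1.34 in coronal fraction 4 and differed by 3.72 (adjusted p = 0.015). In sagittal fractions 5 to 8 Phox2a was at 0.12, -2.76, -2.68 and -0.02, the dip that Dbh and Slc6a2 had. Tfap2b was highest in fraction 5 and differed by 3.63 (0.014). Insm1, a factor of newly formed neurons, was the gene that was lower. Tlx3, detected in only 7 fractions, differed by -0.07 (0.94).

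Other enzymes supply the cofactor of the hydroxylases or break the transmitters down. Of 6 tested precursor and cofactor genes, 2 were higher, Pcbd1 by 0.89 (adjusted p = 0.017) and Pts by 0.35 (0.044), and the median was 0.26. Gch1, which makes the cofactor tetrahydrobiopterin, had 2 probes: the one named above was highest in coronal fraction 4, and the one well above background in every fraction was highest in fraction 8, at 1.38, and did not pass (0.057). Of 5 tested genes of breakdown and other uptake, 2 were higher and 1 lower. Beside both lists, 5.24% of all probes tested were higher and 2153 of 34186 lower. Aldh1a1, which dopamine neurons of the ventral midbrain express, was highest in coronal fraction 6, at 3.88, and differed by 1.76 (0.027). Maoa, the monoamine oxidase, differed by 0.78 (0.018).

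The receptors for the 3 transmitters lie on target cells as well as on the neurons themselves. Of 5 tested dopamine receptors 0 differed in fractions 4 to 6, where 5.24% of all probes were higher and 2153 of 34186 lower. Drd1 and Drd2, the receptors of striatal neurons, were both highest in coronal fraction 11, at 0.60 and -2.03. Of 11 tested serotonin receptors 5 were higher and 0 lower, with a median of 0.69. Htr2c differed by 1.75 (adjusted p = 0.016) and was at 2.27 in fraction 4, and Htr7 differed by 0.94 (0.011). Of 8 tested adrenergic receptors 1 was higher, Adrb3, by 1.17 (0.044), and its r with Slc6a3 over the 34 fractions was 0.709.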

How the data were processed

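Single-colour Agilent arrays of 34 brain fractions were used. The authors scanned them with Agilent Feature Extraction 10.10.1.1 and deposited each array's intensity per spot, with a background-subtracted processed signal and flags. They also deposited a table of log2 values scaled per array, used here as an alternative. No column of per-sample values was left unmapped.

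Spots of a probe were averaged, log2 was taken and the array's log2 75th percentile subtracted. Detection of a probe on an array required the well-above-background flag on more of its spots than not, and the 34186 probes with a detected fraction in every series were tested. Symbols came from RefSeq accessions (assembly GRCm38.p6), which matched 26582 of 55681 probes. Where a gene had 2 probes, the one detected in more fractions, then the brighter, stood for it. limma 3.58.1 in R 4.3.3 (lmFit, eBayes) compared coronal blocks, horizontal fractions 5 to 8 with 1 to 4, distance from sagittal fraction 6 and its mirror pairs, with Benjamini-Hochberg adjustment over all probes. The fits were run on simulated data with independent errors, which cannot show how the p-values behave for neighbouring positions within 1 mouse. Python 3.11.15, numpy 2.4.6, pandas 2.3.3 and scipy 1.17.1 did the rest. The 10 genes and all lists were chosen with earlier results of these data known. Named genes were the 10 members, the 3 genes most like each, and up to 4 per list with the widest coronal range; others named were chosen after their values were seen. A few genes that this rule takes are not reported here. Alternatives were other scalings, normexp (offset 50), the deposited table, detection filters, limma-trend, slide, fractions left out and, for likeness, Spearman's rho. Fractions were numbered by their labels, and the number of arrays, 1 per fraction, limits the precision.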

Additional observations from a re-analysis of the deposited data

Results flagged for a closer look

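For each of the 10 genes, the 8 horizontal values and the 5 differences between mirror sagittal fractions were screened for a single value standing far off, 20 screens in all, of which chance would flag about 1 in 20. One was found. For Fev, sagittal fraction 9 was 2.84 higher than fraction 3, at -3.46 and -6.30 (the latter not well above background), and the nearest of its other 4 mirror differences was 1.31, between fractions 7 and 5.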

How the results depend on the processing

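Of the 30 highest fractions (10 genes in 3 series), 27 were the same with array medians, 29 with quantile normalization, 28 with normexp and 30 with the deposited log2 table or the mean over probes. Those that moved were Pnmt (coronal), Slc6a2 (sagittal 8 to 5) and Fev and Tph2 (horizontal). With slide as a block, the number of genes passing fell from 8 to 1 for coronal blocks, from 6 to 0 for coronal fractions 4 to 6 and from 8 to 5 for sagittal distance, and rose from 0 to 1 for the horizontal comparison. Within 1 slide the numbers were 0, 0, 6 and 1. Among probes detected in every fraction of a fit, which held 6, 6, 6 and 7 of the 10 genes, 4, 3, 5 and 1 passed. The horizontal comparison gave 2 genes with normexp and 2 with limma-trend. Leaving out 1 fraction at a time gave 4 to 8 genes for coronal blocks, 0 to 7 for fractions 4 to 6, 6 to 9 for sagittal distance, 0 to 1 for the horizontal comparison and 0 to 0 for the sides of the sagittal series. Pairs with r of at least 0.85 numbered 5 to 7 in place of 6 under every alternative run. Scaling by array medians moved all probes of an array against those of another by up to 0.41 (log2), and quantile normalization by up to 0.18. No fitted difference that passed changed its sign. No paired analysis was possible because fraction numbers shared by the series are positions in different mice. With 1 array per position and 1 mouse per axis, no difference between mice could be measured, and the sources of the differences between slides were not tested.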

Other observations

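Tph1, the tryptophan hydroxylase of the pineal gland and the gut, did not follow its relative Tph2. Tph1 was at 1.94 in coronal fraction 8, 2.53 in horizontal fraction 2 and 1.69 in sagittal fraction 5, and its second highest values in these series were -1.87, -0.58 and -0.80. Crx, a homeodomain factor of the pineal gland and the retina, rose above background in only 3 fractions, and these were the same 3, at -3.62, -2.56 and -4.14. The Gch1 probe well above background in every fraction was also highest there, at 1.38, 1.79 and 1.30. The probe for Aanat, the enzyme that acetylates serotonin in the pineal gland, did not show this: it was at -0.49, 0.03 and -0.41 in these fractions and between -1.07 and 0.04 in all 34. Of the 3 pineal markers tested, Tph1 was one, so the list is no independent check of it.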
